A study of Mus musculus with 10 samples.

Results

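The 9 genes described here encode enzymes that move retinoids between the alcohol and the aldehyde form. They are the alcohol dehydrogenases Adh1, Adh4 and Adh7 and the short-chain dehydrogenases Rdh7, Rdh10, Rdh11, Rdh13, Dhrs3 and Dhrs9. They were taken from a fixed list of names, which was chosen with earlier results of these data known. All 9 were found among the 55414 gene identifiers of the count files. Their transcripts were measured by RNA sequencing in 10 libraries of mouse jejunum, which lies between duodenum and ileum. The 5 RetSat ko libraries came from mice with the genotype RetSat flox/flox villin-Cre-ERT2 (+), and the 5 control libraries from mice with the genotype RetSat flox/flox villin-Cre-ERT2 (-). All were male C57BL/6J mice in which both copies of Retsat, encoding retinol saturase, are floxed. Both groups were given tamoxifen over 5 days, followed by 14 weeks on a high-fat diet (60 kcal%). The labels give no age. The villin promoter directs Cre-ERT2, a Cre recombinase that tamoxifen activates, to the intestinal epithelium, so cells of the other layers keep the floxed gene. Because control mice lack the transgene, loss of Retsat and presence of active Cre cannot be told apart.

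In the intestine, vitamin A arrives as retinol or as retinal cleaved from carotenoids. Retinol and retinal are converted into each other by reversible steps. Enzymes such as Adh1 and Rdh10 oxidise retinol to retinal, and enzymes such as Dhrs3 and Rdh11 reduce retinal back to retinol. Retinal can also be oxidised further, and irreversibly, to retinoic acid, the ligand of the retinoic acid receptors. Retinol saturase acts on retinol too, which makes the dehydrogenases its neighbours in the pathway.

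The libraries held 102844680 to 128730695 counts. Retsat averaged 19.6 ± 7.76 CPM (counts per 1e+06 counts of the scaled library) in RetSat ko and 440.6 ± 101 CPM in control (SD, n = 5 each). The small intestinal label was checked by its markers, and 12 of 12 absorptive enterocyte markers passed the filter on low counts, with a summed 42222 to 61883 CPM in RetSat ko and 45282 to 70961 CPM in control. Other tissues were present to unequal degrees. Pancreatic acinar markers summed to 35.5 to 2598 CPM in RetSat ko and 24.7 to 273.8 CPM in control, B cell markers to 9.92 to 134 CPM in RetSat ko and 7.28 to 60.1 CPM in control, and hepatocyte markers to 15.9 to 149.4 CPM in RetSat ko and 18.2 to 29.5 CPM in control. Smooth muscle markers summed to 396.2 to 718.3 CPM in RetSat ko and 157.7 to 567.6 CPM in control, where control 3 was far below the other controls (443.8 to 567.6 CPM). Adipocyte markers summed to 118.7 to 219.2 CPM in RetSat ko and 126.1 to 239.9 CPM in control. Most of each sum was Cidec, with 117.2 to 219.0 CPM in RetSat ko and 126.0 to 230.0 CPM in control. The sums therefore mainly restate Cidec. Of the other adipocyte markers Lep, the leptin gene, picked out after its values were seen, had 0.039, 0.433, 3.36, 8.31 and 10.5 CPM in RetSat ko 1 to 5, against 0.074, 1.34, 4.06, 0 and 0.037 CPM in control 1 to 5. Fibroblast markers summed to 119.4 to 234.1 CPM in RetSat ko and 160.6 to 216.8 CPM in control. In edgeR no gene of any marker list, those of uneven level included, had an adjusted p under 0.05. Of all 18654 tested genes, 0.0322% did. The part of these tissues in the values of the 9 genes was not tested beyond leaving out the libraries richest in B cell or acinar markers.

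The 250 bases before the transcription start of the 3 alcohol dehydrogenases are shown because these genes lie together on chromosome 3, and because Adh1 and Adh4 are the members with the lowest RetSat ko levels relative to control. The sequences are RefSeq's, in build GRCm38.p6, on the plus strand. They span chr3:138277335-138277584 for Adh1, chr3:138415247-138415496 for Adh4 and chr3:138217523-138217772 for Adh7. Going by the distances to Adh7 and Adh4, the Adh1 window precedes a start inside the counted Adh1 gene, not at its lower edge. Capitals mark the hexamer AGGTCA, which nuclear receptors bind, and the TATA box hexamer TATAAA, each on either strand, where the complements read TGACCT and TTTATA.
Adh1: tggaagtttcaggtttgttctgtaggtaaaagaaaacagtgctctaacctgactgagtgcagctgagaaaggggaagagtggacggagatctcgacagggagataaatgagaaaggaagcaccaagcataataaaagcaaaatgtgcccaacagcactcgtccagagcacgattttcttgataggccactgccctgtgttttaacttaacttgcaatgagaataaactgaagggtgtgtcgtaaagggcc
Adh4: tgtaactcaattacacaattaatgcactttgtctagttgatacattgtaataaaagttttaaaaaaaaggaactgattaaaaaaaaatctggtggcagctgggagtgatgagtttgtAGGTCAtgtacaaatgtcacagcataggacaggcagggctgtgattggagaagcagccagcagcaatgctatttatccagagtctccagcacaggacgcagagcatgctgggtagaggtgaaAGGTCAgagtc
Adh7: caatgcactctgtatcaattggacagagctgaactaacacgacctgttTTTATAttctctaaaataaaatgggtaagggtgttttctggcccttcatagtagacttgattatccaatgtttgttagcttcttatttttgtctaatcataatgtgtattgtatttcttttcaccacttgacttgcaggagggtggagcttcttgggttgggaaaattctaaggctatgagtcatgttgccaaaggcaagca

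The Adh4 window held AGGTCA at 2 places, starting 133 and 11 bases before the start, and the printed Adh1 and Adh7 windows held none. The Adh7 window held TATAAA on the minus strand, 202 bases before the start, and the printed Adh1 and Adh4 windows held none. Of the windows not printed, AGGTCA was held at 1 place by that of Dhrs9 and by 1 of the 2 windows each of Rdh7 and Rdh11. The Dhrs9 window held TATAAA at 1 place, read on both strands. These overlapping matches start 124 bases (minus strand) and 122 bases (plus strand) before the start. For the Rdh7 window with the match, the bases after its start were found in no Rdh7 transcript of GENCODE M21. Of 32851 promoter windows of this length in the table, 14% held AGGTCA and 12.4% held TATAAA. A match describes letters and not a bound site. The table had windows for 7 of the 9 genes, and for Rdh10 and Rdh13 none is shown.

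Levels of different genes can be set beside each other only per length, so each count was divided by the gene's exon length in units of 1000 bases. On this scale Adh1 was the most abundant of the 9, with 513.3 ± 78.6 CPM per 1000 bases in RetSat ko and 701.6 ± 68.7 in control (SD, n = 5 each). Rdh7 followed with 182.1 ± 19.2 in RetSat ko and 218.1 ± 42.7 in control, and Adh4 with 50.1 ± 11 and 76.3 ± 16.7. Adh1 took 64.0 ± 3.38% of the summed level of the 9 genes in RetSat ko and 66.7 ± 1.97% in control. Rdh7 took 23.0 ± 3.40% and 20.7 ± 2.76%, and Adh4 6.24 ± 0.962% and 7.33 ± 1.93%.

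The other 6 genes stood much lower. Rdh11 had 21 ± 1.91 CPM per 1000 bases in RetSat ko and 20.4 ± 2.14 in control, and Dhrs3 had 15.7 ± 0.613 and 17.4 ± 1.86. Rdh10 had 9.98 ± 1.04 in RetSat ko and 10.8 ± 1.04 in control, and Rdh13 had 4.54 ± 0.307 and 4.21 ± 0.113. Adh7 had 1.62 ± 0.260 and 1.96 ± 0.378, and Dhrs9 0.406 ± 0.238 and 0.431 ± 0.182. The order Adh1, Rdh7, Adh4, Rdh11, Dhrs3, Rdh10, Rdh13, Adh7, Dhrs9 was the same in each of the 10 libraries, without regard to genotype. Over all libraries, however, the ranges of Rdh11 (16.7 to 23.0) and Dhrs3 (14.7 to 19.6) overlapped, and those of every other pair of neighbours did not. Among all 18654 tested genes the mean level of Adh1 lay at percentile 99.6, that of Adh7 at 49.9 and that of Dhrs9 at 30.0.

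**Figure D1:**
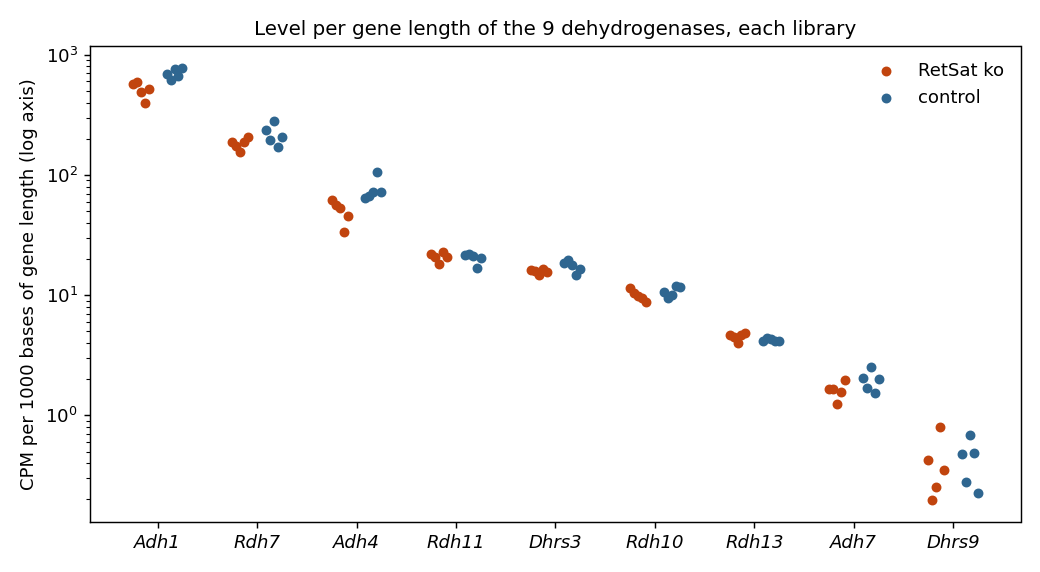
Level of each of the 9 genes per gene length, as CPM per 1000 bases on a log axis, with 1 point per library for RetSat ko (left of each pair) and control. Levels run from 395.5 to 781.3 for Adh1 down to 0.198 to 0.802 for Dhrs9, in the same order in every library.

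The comparison of RetSat ko with control asks whether these transcripts differ when the intestinal epithelium lacks retinol saturase. By edgeR's quasi-likelihood test, no gene of the 9 had an adjusted p under 0.05, a threshold that 0.0322% of all 18654 tested genes met. All 9 passed the filter on low counts. The log2 fold change was negative in 7 and positive in 2, with a median of -0.15, against a median of 0.020 and 46.1% negative values over all genes tested. At an unadjusted p under 0.05 there were 2 of the 9, Adh1 and Adh4, and these were also the 2 whose RetSat ko and control libraries did not overlap. Over all genes tested, 5.45% had an unadjusted p under 0.05 with lower values in RetSat ko, and in 0.729% all RetSat ko libraries lay below all control libraries. In 1.58% all lay above, which none of the 9 did. With DESeq2, 1 of the 9 was called (Adh1), where 0.3% of all genes were called lower and 0.659% in either direction. With limma-voom none of the 9 was called, where 6 of all 18654 tested genes were.

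Adh1 (ENSMUSG00000074207.11, chromosome 3, 137966752 to 137996459, plus strand, GRCm39) encodes the class I alcohol dehydrogenase, which oxidises ethanol and retinol in the cytosol. It had 1278, 1328, 1087, 883.2 and 1156 CPM in RetSat ko 1 to 5, against 1532, 1382, 1702, 1473 and 1745 CPM in control 1 to 5. Every RetSat ko library was lower than every control library, though RetSat ko 2 and control 2 lay close together, and RetSat ko 4 was the lowest of all. The mean was 1146 ± 176 CPM in RetSat ko and 1567 ± 153 CPM in control (SD, n = 5 each), so RetSat ko held 73.2% of the control level. In edgeR the log2 fold change of Adh1 was -0.45 ± 0.124 (SE), the adjusted p 0.291 and the unadjusted p 0.00335. DESeq2 gave -0.46 ± 0.125 and an adjusted p of 0.0351. Without RetSat ko 1, edgeR gave -0.49 ± 0.121 and an adjusted p of 0.0470, in a fit where 2.5% of 19001 genes were called lower and 4.45% were called in all. Without the 3 libraries richest in B cell markers it was -0.53 (0.0211% of all genes called), and without the 4 richest in acinar markers -0.56 (0.0264% called), both with no call among the 9. Over the 21 alternatives the adjusted p of Adh1 lay between 0.0351 and 0.977.

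Adh4 (ENSMUSG00000037797.15, chromosome 3, 138121227 to 138136653, plus strand), the class II alcohol dehydrogenase, was far less abundant and had the larger relative difference. Its libraries held 90.0, 81.7, 77.6, 48.9 and 65.5 CPM in RetSat ko 1 to 5, against 93.4, 97.3, 104.4, 153.0 and 105.0 CPM in control 1 to 5. The groups did not overlap, but RetSat ko 1 and control 1 were only a few CPM apart, and control 4 stood well above the other controls. The mean was 72.7 ± 16 CPM in RetSat ko and 110.6 ± 24.2 CPM in control, or 65.7% of control. This gave a log2 fold change of -0.61 ± 0.176 (SE, edgeR adjusted p = 0.291, unadjusted p = 0.00541). Without control 4 it was -0.46 ± 0.147 (edgeR adjusted p = 0.445), and without RetSat ko 1 it was -0.69 ± 0.187 (0.0648). DESeq2 gave an adjusted p of 0.0552 for Adh4.

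Adh7 (ENSMUSG00000055301.9, chromosome 3, 137923521 to 137939143, plus strand), the class IV enzyme known from stomach and other surface epithelia for its high activity on retinol, was scarce in jejunum. It had 6.24, 6.23, 4.72, 5.97 and 7.48 CPM in RetSat ko 1 to 5, against 7.79, 6.42, 9.53, 5.81 and 7.58 CPM in control 1 to 5. The groups overlapped widely, and the log2 fold change was -0.28 ± 0.150 (SE, edgeR adjusted p = 0.471). Without control 3 the value for Adh7 was -0.17. Of the gastric markers, Gkn2 had 0 counts in all 10 libraries, Gkn1 in all control libraries and Muc5ac in all RetSat ko libraries. The summed gastric markers, mostly Gkn3, came to 7.80 to 14.1 CPM in RetSat ko and 6.89 to 11.8 CPM in control.

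**Figure D2:**
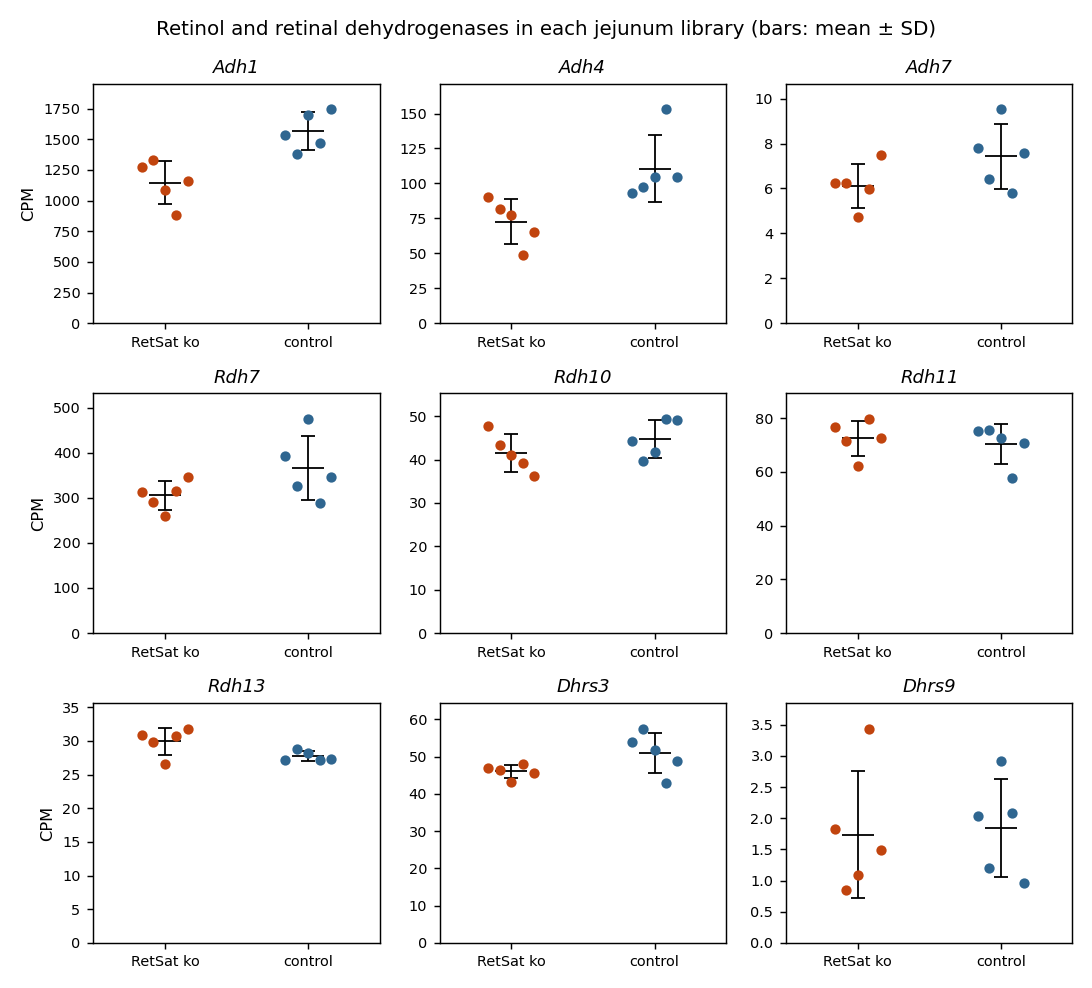
CPM of each of the 9 genes in the 5 RetSat ko libraries (left) and the 5 control libraries (right) of each panel, with bars for mean ± SD and axes that start at 0. Adh1 and Adh4 are the panels without overlap between the genotypes.

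Among the short-chain enzymes of retinol oxidation, Rdh7 was the most abundant. Rdh7 (ENSMUSG00000040134.9, chromosome 10, 127719897 to 127724686, minus strand) encodes a microsomal enzyme that oxidises retinols and androgens. It had 314.1, 291.3, 260.3, 314.6 and 347.3 CPM in RetSat ko 1 to 5, against 393.3, 326.8, 474.8, 288.1 and 346.7 CPM in control 1 to 5. The groups overlapped, and control 3 was the highest of the 10 libraries. The mean was 305.5 ± 32.2 CPM in RetSat ko and 365.9 ± 71.7 CPM in control, with a log2 fold change of -0.26 ± 0.128 (SE, edgeR adjusted p = 0.432). Without control 3 the log2 fold change of Rdh7 was -0.15. Rdh7 shares an exact stretch of 164 bases with Rdh18-ps and is 86.3% identical to Rdh16 over 1031 bases. The counting command sets no option for reads aligned to several places, so the level of Rdh7 is uncertain.

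Rdh10 (ENSMUSG00000025921.8, chromosome 1, 16175998 to 16203958, plus strand), the retinol dehydrogenase on which retinoic acid synthesis in the embryo depends, did not differ beyond its spread. It had 47.7, 43.3, 41.0, 39.3 and 36.2 CPM in RetSat ko 1 to 5, against 44.3, 39.6, 41.8, 49.3 and 49.1 CPM in control 1 to 5. RetSat ko 1 lay below control 4 and 5 only, and RetSat ko 4 and 5 lay below every control. Its log2 fold change was -0.11 ± 0.0875 (SE, edgeR adjusted p = 0.630), and without RetSat ko 5 it was -0.065.

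Dhrs9 (ENSMUSG00000027068.7, chromosome 2, 69210789 to 69234877, plus strand), a retinol dehydrogenase that also acts on steroids, was the least abundant and the most variable. It had 1.82, 0.847, 1.09, 3.43 and 1.49 CPM in RetSat ko 1 to 5, against 2.04, 1.21, 2.92, 2.09 and 0.965 CPM in control 1 to 5. RetSat ko 4 was the highest and RetSat ko 2 the lowest of all libraries, so the range of RetSat ko enclosed that of control. The SD was 58.7% of the mean in RetSat ko and 42.3% in control, compared with 15.3% and 9.79% for Adh1. The log2 fold change of -0.083 ± 0.396 (SE, edgeR adjusted p = 0.949) was smaller than its error. Myeloid markers, of cells known to express Dhrs9, summed to 110.5 to 160.0 CPM in RetSat ko and 110.6 to 182.8 CPM in control.

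The 3 enzymes known mainly for reducing retinal gave no call in edgeR, where 0.0322% of all tested genes were called. Their log2 fold changes were not all of 1 sign. Rdh11 (ENSMUSG00000066441.15, chromosome 12, 79221111 to 79239067, minus strand), a microsomal retinal reductase, had 76.7, 71.3, 62.3, 79.6 and 72.4 CPM in RetSat ko 1 to 5. It had 75.2, 75.6, 72.6, 57.6 and 70.8 CPM in control 1 to 5, with control 4 below the rest. Its log2 fold change was 0.042 ± 0.0879 (SE, edgeR adjusted p = 0.873), and without control 4 it was -0.023.

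Rdh13 (ENSMUSG00000008435.16, chromosome 7, 4427769 to 4448648, minus strand), a mitochondrial member of the family, had 30.8, 29.8, 26.5, 30.7 and 31.8 CPM in RetSat ko 1 to 5. It had 27.2, 28.8, 28.3, 27.2 and 27.3 CPM in control 1 to 5. RetSat ko 1, 2, 4 and 5 lay above every control library and RetSat ko 3 below every one. For Rdh13 the log2 fold change was 0.11 ± 0.0619 (SE, edgeR adjusted p = 0.489). Controls were closely grouped, with an SD of 2.69% of the mean.

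Dhrs3 (ENSMUSG00000066026.15, chromosome 4, 144619397 to 144654779, plus strand) reduces retinal, works together with Rdh10 and is a known target of retinoic acid. It had 47.0, 46.3, 43.3, 48.1 and 45.7 CPM in RetSat ko 1 to 5, against 54.0, 57.4, 51.7, 43.0 and 48.7 CPM in control 1 to 5. All RetSat ko libraries lay below control 1, 2, 3 and 5, and all lay above control 4. Dhrs3 had a log2 fold change of -0.15 ± 0.0759 (SE, edgeR adjusted p = 0.455). The SD of Dhrs3 was 3.90% of the mean in RetSat ko and 10.7% in control.

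Summed over the 9 genes, the level was 798.8 ± 89.5 CPM per 1000 bases in RetSat ko and 1051 ± 95.1 in control (SD, n = 5 each), with ranges of 672.6 to 878.0 and 938.0 to 1173. Since Adh1 makes up most of this sum, it mainly restates the Adh1 values, and no test was made of it. Relative to Rdh7, the Adh1 level was 3.06, 3.43, 3.14, 2.11 and 2.5 times as high in RetSat ko 1 to 5, against 2.93, 3.18, 2.69, 3.84 and 3.78 times in control 1 to 5. These ratios overlapped between the genotypes.

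The absorptive enterocyte markers, like Adh1 and Adh4, mostly had negative log2 fold changes. Of the 12 markers, 11 had a negative log2 fold change (median -0.32). None passed the threshold in edgeR, which 0.0322% of all tested genes met. Their mean log2 CPM was 11.18 ± 0.220 in RetSat ko and 11.50 ± 0.208 in control (SD, n = 5 each), a difference of -0.32 (two-sided exact permutation test, p = 0.0556; the smallest p that 5 against 5 allows is 0.00794). These markers were chosen with earlier results of the data known, which this p does not take into account. All 10 crypt and cycling cell markers had a positive log2 fold change (median 0.29), with a summed 753.6 to 1125 CPM in RetSat ko and 717.6 to 934.7 CPM in control, and none passed. The 7 Paneth cell markers were likewise all positive (median 0.84), at 2112 to 5129 CPM in RetSat ko and 1109 to 3441 CPM in control, with none passing. The part of the crypt and Paneth cell markers in the Adh1 and Adh4 values was not tested. In tissue RNA, fewer cells of a type and less RNA per cell cannot be told apart. With the enterocyte mean as a covariate in edgeR, the log2 fold change of Adh1 was -0.27 ± 0.129 (SE, adjusted p = 0.601) and that of Adh4 -0.53 ± 0.232 (adjusted p = 0.585). In that fit Adh7 had -0.050 ± 0.183 and Rdh7 -0.041 ± 0.145, and 0.0214% of all genes were called. By the enterocyte mean RetSat ko 2 to 5 lay below every control, at 10.99 to 11.13, and only RetSat ko 1 lay among the controls. Covariate and genotype could therefore barely be separated in this fit.

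**Figure D3:**
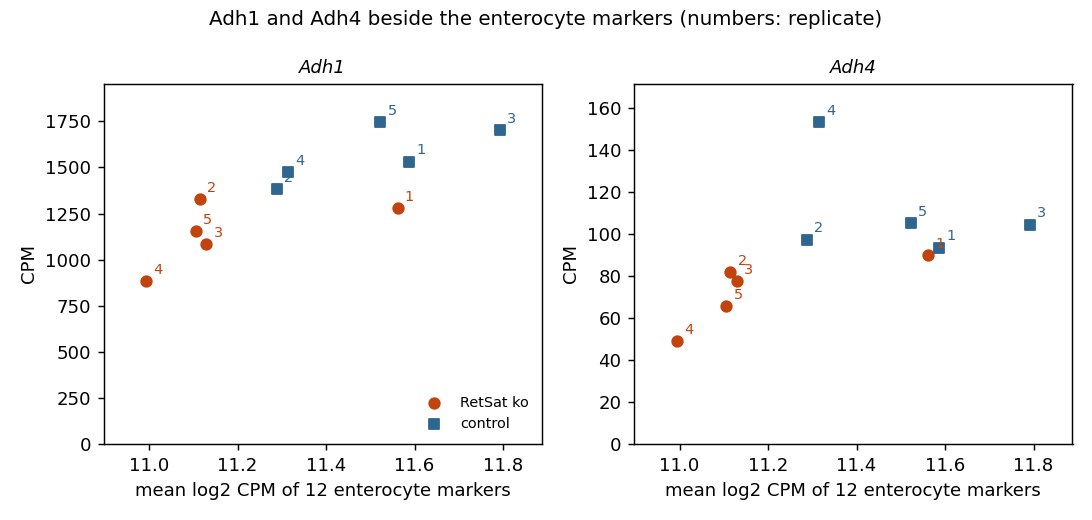
CPM of Adh1 (left panel) and Adh4 (right panel) against the mean log2 CPM of 12 absorptive enterocyte markers, 1 point per library with its replicate number. RetSat ko 2 to 5 lie left of all controls, at 10.99 to 11.13, while RetSat ko 1 lies among the controls at 11.56.

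**Figure D4:**
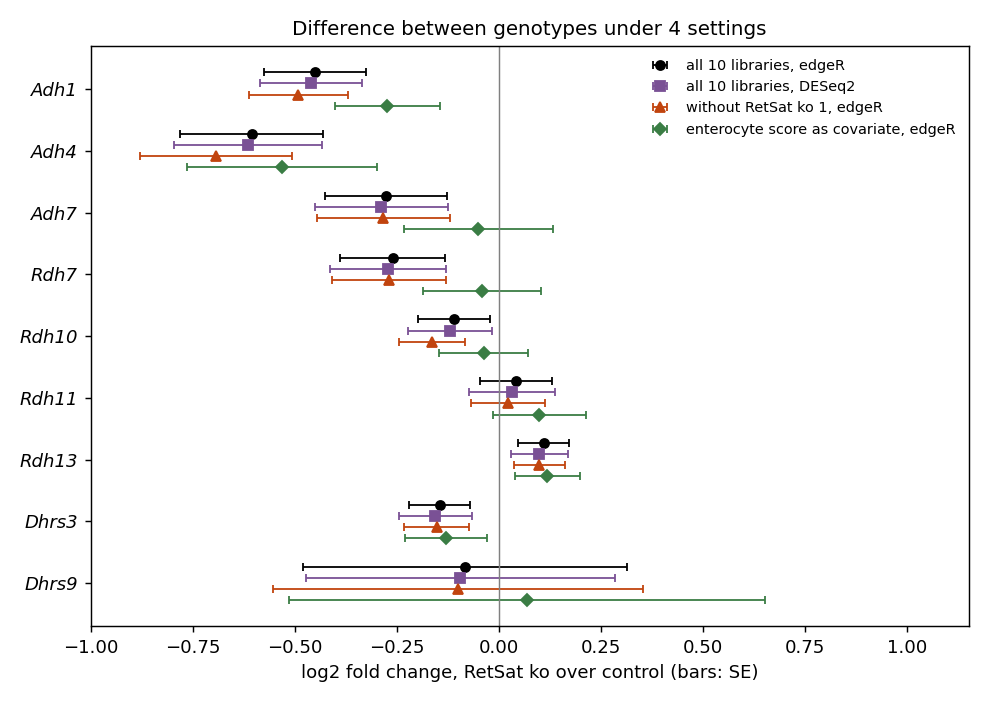
Log2 fold change of each gene, RetSat ko over control, with SE, from edgeR on all libraries, DESeq2 on all libraries, edgeR without RetSat ko 1, and edgeR with the enterocyte mean as covariate. Adh1 and Adh4 stay negative in all 4, while Adh7 and Rdh7 are at -0.28 and -0.26 without and at -0.050 and -0.041 with the covariate.

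The alcohol dehydrogenase genes form a cluster on chromosome 3 in the order Adh7, Adh1, Adh6a, Adh6b, Adh4 and Adh5, all on the plus strand. Adh6a, 52.3 kb beyond the start of Adh1, was about as abundant as Adh1 per length, with 530.0 ± 138 CPM per 1000 bases in RetSat ko and 602.7 ± 75.8 in control. Its groups overlapped, with 1861, 1477, 1349, 998.1 and 1052 CPM in RetSat ko 1 to 5 against 1420, 1577, 1271, 1773 and 1619 CPM in control 1 to 5. For Adh6a the log2 fold change was -0.19 ± 0.169 (SE, edgeR adjusted p = 0.679). Adh5, the class III enzyme that removes formaldehyde, lies next to Adh4 and had 102.4 CPM in RetSat ko and 104.8 CPM in control, with a log2 fold change of -0.034 ± 0.0595 (edgeR adjusted p = 0.846). Adh6b reached at most 16 counts in any library and was not tested.

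Rdh7 lies in a cluster on chromosome 10 with Rdh1, Rdh9, Rdh16, Rdh19, Rdh16f2 and Hsd17b6. Rdh16f2, at -17.6 kb from Rdh7, had 19.0 ± 2.62 CPM in RetSat ko and 23.1 ± 4.73 CPM in control, with a log2 fold change of -0.28 ± 0.139 (SE, edgeR adjusted p = 0.433). Rdh9 had 7.50 ± 1.19 CPM in RetSat ko and 9.84 ± 3.29 CPM in control, with -0.39 ± 0.196 (0.440). Hsd17b6, an enzyme of androgen metabolism, had 140.8 ± 21.6 CPM in RetSat ko and 162.7 ± 21.3 CPM in control, with -0.21 ± 0.113 (0.473). Reads shared with relatives could not be followed in these counts, so the values of this cluster are uncertain.

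**Figure D5:**
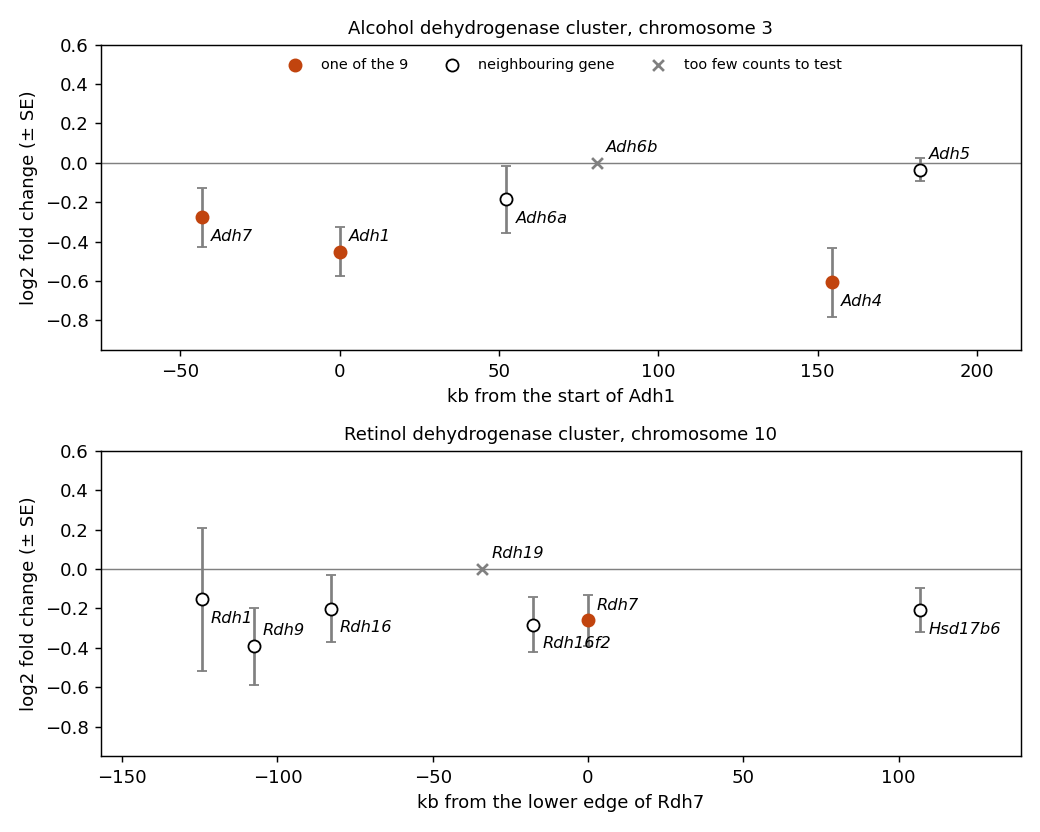
Log2 fold change, RetSat ko over control, with SE, of the genes in the alcohol dehydrogenase cluster (upper panel) and the retinol dehydrogenase cluster (lower panel) by distance in kb from Adh1 or Rdh7. Filled points are among the 9 genes, open points are neighbours and crosses mark genes with too few counts to test. Adh4 is at -0.61 and its neighbour Adh5 at -0.034.

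Other enzymes of these families gave no call in edgeR, where 0.0322% of all 18654 tested genes were called. Of 27 listed relatives, 22 were tested, 6 with a positive and 16 with a negative log2 fold change (median -0.091), and none passed in edgeR. Dhrs1, after Adh6a the most abundant relative per length, had 237.4 ± 24.6 CPM per 1000 bases in RetSat ko and 271.0 ± 47.5 in control (log2 fold change -0.19 ± 0.126). The relatives with the smallest p were Rdh12, the photoreceptor retinal reductase, with 0.50 ± 0.200 at 0.537 ± 0.0944 CPM in RetSat ko and 0.378 ± 0.0607 CPM in control, and Dhrs13 with 0.28 ± 0.126. Their edgeR adjusted p were 0.355 and 0.403.

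Genes of retinol uptake and storage were likewise not called in edgeR, beside a share of 0.0322% called over all tested genes. All 14 were tested, 8 with a positive and 6 with a negative log2 fold change (median 0.19). Rbp2, the retinol-binding protein of the enterocyte, was the most abundant, with 8584 ± 1084 CPM per 1000 bases in RetSat ko and 9353 ± 2392 in control, and a log2 fold change of -0.12 ± 0.188 (SE, edgeR adjusted p = 0.817). Dgat1, an acyltransferase that can esterify retinol as well as diglyceride, had -0.13 ± 0.104. The smallest p belonged to Rbp7, a cellular retinol-binding protein, with 19.1, 26.2, 20.2, 18.1 and 19.6 CPM in RetSat ko 1 to 5 against 15.9, 19.2, 13.2, 14.1 and 17.8 CPM in control 1 to 5. The groups of Rbp7 overlapped, with 0.36 ± 0.124 and an edgeR adjusted p of 0.314. The carriers Rbp4 and Ttr had 0.60 ± 0.244 and 0.57 ± 0.246 (edgeR adjusted p = 0.362 and 0.386). Both were highest in RetSat ko 5, the library with 149.4 CPM of summed hepatocyte markers, whose part in these values was not tested.

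The enzymes that take retinal onward did not pass either, at an edgeR threshold that 0.0322% of all tested genes met. Of 11 listed genes for retinoic acid synthesis, binding and breakdown, 6 were tested, 2 with a positive and 4 with a negative log2 fold change. Aldh1a1, the retinal dehydrogenase with the highest level, had 414.2, 487.8, 503.2, 817.2 and 1023 CPM in RetSat ko 1 to 5 against 803.2, 619.3, 1413, 542.4 and 722.4 CPM in control 1 to 5. The groups overlapped and the log2 fold change was -0.34 ± 0.318 (SE, edgeR adjusted p = 0.694). Aldh1a7 had -0.29 ± 0.178 (0.530). Cyp26a1, Cyp26c1, Crabp1, Crabp2 and Aldh8a1 reached at most 54 counts in any library. Of 6 receptor genes, 5 were tested and none passed, with -0.19 ± 0.0933 for Rxra and -0.012 ± 0.0587 for Rxrb.

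Cpn1 and Wwox were among the 3 genes whose log2 CPM followed that of Adh1 most closely over the 10 libraries, out of 13226 genes of at least 1 CPM. As a measure of likeness, Pearson's r was 0.938 for Cpn1 and 0.923 for Wwox, and Spearman's rho was 0.867 for both. These 10 libraries share the genotype groups, and the genes were picked as the closest of many, so no p is given. Cpn1 had a log2 fold change of -0.47 ± 0.155 (SE, edgeR adjusted p = 0.313), and Wwox had -0.11 ± 0.0786 (0.577).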

How the data were processed

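The authors deposited unnormalized gene counts, a file for each library. The submitters' processing notes name Trimmomatic, STAR and build GRCm39. Per the file headers, featureCounts 2.0.1 counted exons grouped by gene of GENCODE M28, with no option for strand, read pairs or multiple alignments. Overlapping genes on opposite strands are therefore not separated. Adh1 shares 6.09% of its exon bases with Gm16559, which had 179 to 363 counts per library, and Adh7 shares 2.85% with 0610031O16Rik. Symbols were matched by identifier for 52081 of 55414 genes. Transcripts of GENCODE M21 were compared with blastn 2.17.0, and promoter windows are from RefSeq.

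In R 4.3.3, genes passing filterByExpr were scaled with TMM factors, and RetSat ko was compared with control in edgeR 4.0.16 (quasi-likelihood F-test, robust, no covariates). P-values were adjusted by the Benjamini-Hochberg method over the 18654 tested genes. CPM uses the scaled library size, and log2 CPM a prior count of 2. SE is the log2 fold change divided by the root of F. DESeq2 1.42.0 and limma 3.58.1 were alternatives, and the steps were tested on simulated counts. There edgeR called 38, 82, 100 and 92% of the genes changed 1.5-, 2-, 4- and 8-fold, with 50 genes at each size and 160 calls in all. In the 10 libraries edgeR called 6 genes, and whether these percentages hold for them was not tested. The 7 Paneth cell markers, with a median log2 fold change of 0.84, were not called. A gene that was not called may therefore still differ, and not only by a small fold. No pair of libraries was a duplicate (lowest chi-square per degree of freedom 54.5 over 45 pairs). Since no label says that the libraries of a group are separate animals, the spread behind the p-values is that of these samples and may be technical.

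The 9 genes and all lists were chosen with earlier results of these data known. Named besides them are, per list, up to 3 genes with an unadjusted p under 0.05 and the 2 of highest level, with Retsat, cluster neighbours and the 3 genes most like Adh1, of which 1 is not reported here. The cluster neighbours were chosen after their values were seen.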

Additional observations from a re-analysis of the deposited data

Results flagged for a closer look

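In 44 groups of 5 libraries (the 9 genes and the other named retinoid genes in each genotype), 7 values stood far from the other 4 of their group, where chance gives about 1 in 20 groups. In control 4, Adh4 was 153.0 CPM, while the other controls had 93.4 to 105.0 CPM. Rdh11 was 57.6 CPM in control 4, against 70.8 to 75.6 CPM. Control 4 is also 1 of the 3 libraries richest in B cell markers (60.1 CPM) and 1 of the 4 richest in acinar markers (132.4 CPM). Without those 3 libraries Adh4 had a log2 fold change of -0.56 and Rdh11 0.045, and without those 4 Adh4 had -0.62 and Rdh11 -0.060. Rxra was 236.1 CPM in RetSat ko 1, against 174.4 to 189.5 CPM in the other RetSat ko libraries. Rbp7 was 26.2 CPM in RetSat ko 2, against 18.1 to 20.2 CPM. Rbp4 was 7.66 CPM in RetSat ko 5, against 2.84 to 3.46 CPM, and Ttr was 14.8 CPM there, against 5.62 to 7.62 CPM. In control 5, Ttr was 6.62 CPM, while the other controls had 5.02 to 5.34 CPM.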

How the results depend on the processing

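The count of the 9 genes called was 0 in edgeR, 1 with DESeq2 (Adh1) and 0 to 1 when single libraries were left out, the 1 being Adh1 without RetSat ko 1. All genes called numbered 6, with 123 in DESeq2, 12 in limma-voom with sample weights, and 5 to 846 when single libraries were left out, the 846 without RetSat ko 1. With the replicate number as a block, 0 of the 9 and 4 of all genes were called. No pairing by number was visible in the counts. Same-numbered libraries had correlations of -0.149 to 0.0021 in their deviations, and 0 of 5 RetSat ko libraries correlated best with the control of their number. These correlations cannot show that the design had no pairing. Without the 3 libraries richest in B cell markers, or the 4 richest in acinar markers, both added after seeing the data, 0 of the 9 were called, and Adh1 had -0.53 and -0.56. Direction held for Adh1, Adh4, Adh7, Rdh7, Rdh10, Rdh13 and Dhrs3 in the 21 alternatives run. Rdh11 reversed with sample weights (-0.00023), without control 4 (-0.023) and without the acinar-rich libraries (-0.060). Dhrs9 reversed with sample weights (0.028), the enterocyte covariate (0.068), without RetSat ko 2 (0.090), RetSat ko 3 (0.045) or control 3 (0.14), and without the B cell-rich libraries (0.33). The cause was not tested. Single libraries left out gave -0.023 to 0.092 for Rdh11 and -0.49 to 0.14 for Dhrs9. Without division by length the share of the sum was 17.1% for Rdh7, 4.58% for Adh4, 3.70% for Rdh11, 2.5% for Dhrs3, 2.21% for Rdh10, 1.5% for Rdh13, 0.343% for Adh7 and 0.0938% for Dhrs9, as follows from the unequal lengths. Counts were lowest for Dhrs9, with 94 to 458 in RetSat ko and 105 to 312 in control, and depth as a limit was not tested.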
